A study of Mus musculus with 4 samples.

Results

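The genes examined were 10 that bind or move metals: the metallothioneins Mt1, Mt2 and Mt3, the ferritin subunits Fth1 and Ftl1, the transferrin receptor Tfrc, transferrin (Trf), the iron exporter ferroportin (Slc40a1), lipocalin 2 (Lcn2) and ceruloplasmin (Cp). They were taken by their symbols from 22609 gene symbols counted by RNA-Seq, and all 10 had a row. Total RNA came from the hippocampus of ovariectomized female mice aged 3 to 5 months. Each mouse had global cerebral ischemia (GCI), in which both common carotid arteries were closed for 20 min, followed by 24 h of reperfusion. The ovaries had been removed 1 week earlier in both groups. FLOX+GCI was the control genotype (2 libraries). FBN-ARO-KO+GCI (2 libraries) carried a Cre/LoxP deletion of Cyp19a1, which encodes aromatase, the enzyme that makes estradiol. Cre was driven by the CaMKIIα promoter, so the deletion was limited to excitatory neurons of the forebrain, and the glia, vessels and other cells of the hippocampus were not targeted. No sham-operated library was analysed here, so the values compare genotypes after ischemia and do not measure the effect of ischemia itself.

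The deposited gene counts summed to between 24333396 and 33076795 per library, which places a count of 3 at 0.0907 to 0.123 CPM, the unit used here for a count scaled to library size with TMM factors. Cyp19a1 itself, at 4 and 1 counts in the FLOX+GCI libraries and 2 in each of the others, was too sparse for a check of genotype. All 8 markers of excitatory hippocampal neurons were present, led by Camk2a at 4918 to 5172 CPM. Libraries of 1 group differed by more than counting noise (chi-square per degree of freedom of 10.5 and 12.3). Across 13983 genes, the ratio between the genotypes ran against the GC content of the transcript (Spearman rho of -0.549), and so did the ratio between the FBN-ARO-KO+GCI libraries (-0.479). Each fold change of the 10 genes is therefore given also with an offset for GC content and transcript length. FLOX+GCI replicate 2 stood apart in Gfap, an astrocyte filament gene, at 900.3 CPM against 396, 502 and 560.2 CPM in the other libraries (a gene singled out after its values were seen). In whole tissue, fewer cells of a type and less RNA per cell cannot be told apart.

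Metallothioneins are small cysteine-rich proteins that hold zinc and copper. Mt1 and Mt2 are induced by zinc, glucocorticoids and inflammatory signals, mainly in astrocytes, whereas Mt3 is typical of brain. Ferritin stores iron in a shell of heavy and light subunits. Transferrin carries iron in the extracellular fluid and the transferrin receptor takes it up. Ferroportin exports iron, and ceruloplasmin, a copper-containing ferroxidase, oxidizes the exported iron so that transferrin can bind it. Lcn2 is an acute-phase protein that binds siderophores, the iron carriers of bacteria, and is known as a marker of reactive astrocytes.

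Iron also controls some of these transcripts after transcription, through a hairpin called the iron-responsive element (IRE), which the iron regulatory proteins bind when iron is scarce. The hairpins are shown because they divide the members into mRNAs whose translation is held back at the 5′ end and an mRNA whose decay is slowed at the 3′ end. The mouse coding transcripts (mm9, GENCODE) were searched for a loop of CAGTG followed by A, C or T. The loop had to close an upper stem of 5 pairs. Below it came an unpaired C and a lower stem with at least 4 of 5 positions paired. A match was found in 22 of 22754 genes (0.0967%) and in 4 of the 10 members. The 6 loop bases are in capitals. In the 5′ UTR, within exon 1, lay the sites of Fth1 (chr19:10057223-10057249, plus strand), Ftl1 (chr7:52715150-52715176, minus strand) and Slc40a1 (chr1:45982311-45982337, minus strand).
Fth1: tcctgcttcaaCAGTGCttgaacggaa
Ftl1: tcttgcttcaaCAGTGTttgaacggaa
Slc40a1: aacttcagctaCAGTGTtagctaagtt
Tfrc held 4 sites in its 3′ UTR, all in exon 19 of 19, on the plus strand at chr16:32631306-32631332, chr16:32631685-32631711, chr16:32631750-32631776 and chr16:32631797-32631823.
Tfrc site 1: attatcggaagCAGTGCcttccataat
Tfrc site 2: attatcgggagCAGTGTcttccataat
Tfrc site 3: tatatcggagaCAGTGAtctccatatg
Tfrc site 4: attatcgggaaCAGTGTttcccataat
A match describes the letters of the transcript, and binding was not measured.

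None of the 10 genes passed an adjusted p of 0.05 in edgeR's quasi-likelihood test, against 0.0138% of the 14527 genes tested (2 genes). DESeq2 gave an adjusted p to 7 of the 10 and called none, against 5.1% of the genes to which it gave one. All 10 passed the filter on low counts. At an unadjusted p under 0.05, Lcn2 was higher and Mt1 and Ftl1 were lower in FBN-ARO-KO+GCI, which is 3 of 10 beside 16.5% of all genes tested (8.72% higher and 7.82% lower). The groups did not overlap for 5 of the 10 (Tfrc and Lcn2 higher, Mt1, Mt3 and Ftl1 lower), beside 51.8% of all genes (25.9% higher and 25.8% lower). The median log2 fold change of the 10 was -0.08, with 4 positive and 6 negative, and that of all genes tested was -0.01. With the GC and length offset, the 3 genes at an unadjusted p under 0.05 were Lcn2, Mt3 and Fth1, all higher, beside 11.4% of all genes (7.92% higher and 3.5% lower). The smallest adjusted p among the 10 was 0.244 for Ftl1 without the offset and 0.36 for Mt3 with it (edgeR in both). The labels do not say whether the libraries came from separate mice, so these p-values measure only the spread between the libraries.

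**Figure D1:**
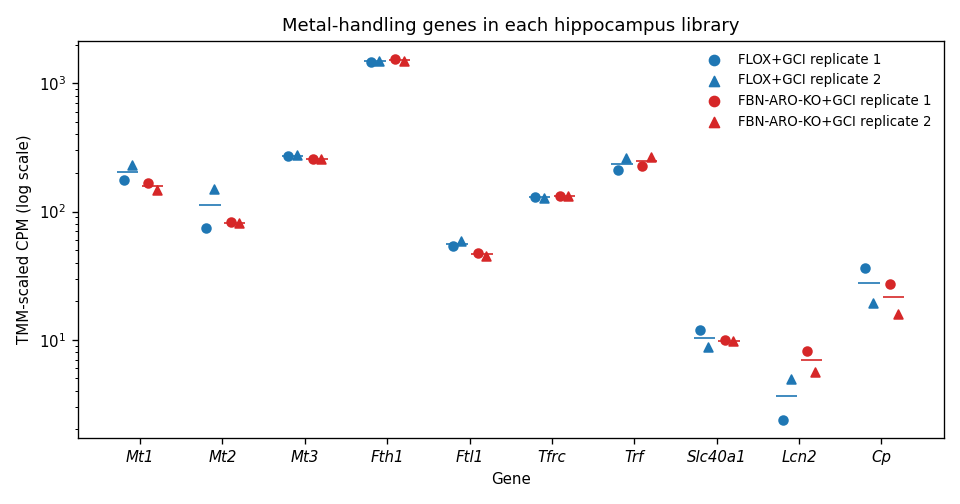
TMM-scaled CPM (log axis) of the 10 metal-handling genes in each of the 4 hippocampus libraries; circles are replicate 1, triangles replicate 2, blue FLOX+GCI, red FBN-ARO-KO+GCI, and bars mark group means. Fth1 lay between 1478 and 1561 CPM in every library, Mt2 stood out in FLOX+GCI replicate 2 at 149 CPM, and the replicate 1 libraries lay above the replicate 2 libraries for Cp in both genotypes.

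The 3 metallothioneins lie together on chromosome 8 of mm9, all on the plus strand, in the order Mt3 (96676507 to 96678048), Mt2 (96696518 to 96697467) and Mt1 (96702989 to 96704225). Mt2 ends 5521 bases before Mt1 starts, and Mt3 ends 18469 bases before Mt2. The metal response element is the promoter motif through which the zinc-sensing factor MTF1 induces Mt1 and Mt2. Its core, TGCACNC or TGCGCNC, is shown in capitals because Mt1 and Mt2 are known for their response through it. It was searched on both strands from 250 bases before to 50 after the RefSeq start (GRCm38.p6), with 7 bases printed on each side. No cores overlapped.
Mt1 core 1: cccgctgTGCACACtggcgct
Mt1 core 2: ggagctcTGCACTCcgcccga
Mt1 core 3: cgaaaagTGCGCTCggctctg
Mt2 core 1: tcgcctcTGCACCCggcccct
Mt2 core 2: gacccttTGCGCTCagctcct
Mt2 core 3: ggagggcGTGTGCAggctctg
Mt2 core 4: tcgggtcGTGCGCAggcccag
Mt3 core 1: acagcagTGCACACacacgga
The sites of Mt1 span chr8:94179059-94179122, those of Mt2 chr8:94172388-94172635 and that of Mt3 chr8:94152627-94152647. Cores 3 and 4 of Mt2 read on the minus strand and are printed as on the plus strand. Counted from the leftmost base, core 1 of Mt1 lay 23 bases before the start, and cores 2 and 3 lay 3 and 21 after it. Cores 1 to 3 of Mt2 lay 223, 128 and 50 bases before the start, and core 4 lay 5 after it. The core of Mt3 lay 28 bases after the start. Bases outside the window were not searched. Of 32851 promoter windows, 25.7% held at least 1 core, 1.97% at least 3 and 0.517% at least 4.

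Mt1 measured 176 and 229 CPM in FLOX+GCI and 166 and 148 CPM in FBN-ARO-KO+GCI. Both FLOX+GCI libraries were above both FBN-ARO-KO+GCI libraries, though FLOX+GCI replicate 1 exceeded the higher of them only slightly. The group means were 202 ± 37.7 and 157 ± 12.2 CPM (SD, n = 2), and the log2 fold change of FBN-ARO-KO+GCI over FLOX+GCI was -0.37 (SE 0.13, 95% interval -0.66 to -0.07, unadjusted p = 0.0226, edgeR adjusted p = 0.252). With the GC and length offset it was -0.17 (SE 0.11, edgeR adjusted p = 0.589).

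Mt2 measured 75.1 and 149 CPM in FLOX+GCI and 82.2 and 81.6 CPM in FBN-ARO-KO+GCI. The groups overlapped, because FLOX+GCI replicate 1 was the lowest of the 4 libraries and replicate 2 the highest. The means were 112 ± 52.5 and 81.9 ± 0.481 CPM (SD, n = 2), with a log2 fold change of -0.45 (SE 0.27, 95% interval -1.08 to 0.17, edgeR adjusted p = 0.408). The offset gave -0.19 (edgeR adjusted p = 0.807).

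The comparisons of Mt1 and Mt2 turned on which FLOX+GCI library was kept. Without FLOX+GCI replicate 1, Mt1 had a log2 fold change of -0.54 (edgeR adjusted p = 0.0268) and Mt2 of -0.86 (edgeR adjusted p = 8.18e-04), and both passed, beside 1.3% of all genes. With 1 library in an arm, here and below, the spread was estimated from the other group alone and the lone library is assumed to vary like it. Without FLOX+GCI replicate 2, the library with the most Gfap, the values were -0.17 for Mt1 and 0.12 for Mt2, and neither passed. The summed level of the 8 astrocyte markers was 5963 and 6074 CPM in FLOX+GCI and 6191 and 6869 CPM in FBN-ARO-KO+GCI, so FLOX+GCI replicate 2 was not the highest in the list as a whole. Of the 8, 4 were lower in FLOX+GCI replicate 2 than in replicate 1, among them the 3 most abundant (Slc1a2, Aldoc and Slc1a3), and Gfap was among the others. Their part in the metallothionein values was not tested.

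Mt3 was nearly level, at 269.8 and 277 CPM in FLOX+GCI and 256.3 and 259 CPM in FBN-ARO-KO+GCI. Both FBN-ARO-KO+GCI libraries were slightly below both FLOX+GCI libraries. The means were 274 ± 5.45 and 258 ± 1.91 CPM (SD, n = 2) and the log2 fold change was -0.09 (SE 0.07, 95% interval -0.24 to 0.07, edgeR adjusted p = 0.514). Mt3 had the highest GC content of the 10 transcripts (62.1%), and the offset turned its direction, to 0.29 (SE 0.08, 95% interval 0.09 to 0.49, unadjusted p = 0.0108, edgeR adjusted p = 0.36). No direction is therefore given for Mt3.

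Within each library, Mt1 and Mt2 kept an uneven ratio. Per kilobase of transcript, Mt1 stood at 2.06 and 1.35 times Mt2 in FLOX+GCI and at 1.77 and 1.60 times in FBN-ARO-KO+GCI. Mt2 was 0.521 of Mt3 in FLOX+GCI replicate 2 and 0.269 to 0.311 of it in the other libraries. Likeness of pattern was measured as the root mean square difference of log2 CPM centred over the 4 libraries, which rests on only 4 points. The genes nearest to Mt1 were AA960436 (0.008), Frem1 (0.011) and Adck4 (0.013), and those nearest to Mt2 were Prss23 (0.033), Col27a1 (0.047) and Rgs22 (0.058). Mt1 and Mt2 differed from each other by 0.222, 259 tested genes lay nearer to Mt2 than Mt1 did, and 4870 lay nearer to Mt1 than Mt2 did. The fourth gene of the cluster, Mt4, a metallothionein of squamous epithelium, had 0 or 1 count in each library and was not tested.

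Fth1, the ferritin heavy subunit with the ferroxidase centre (chromosome 19, 10057193 to 10059582, plus strand), was the most abundant member. It measured 1478 and 1506 CPM in FLOX+GCI and 1561 and 1495 CPM in FBN-ARO-KO+GCI, with overlapping groups. The log2 fold change was 0.03 (SE 0.06, 95% interval -0.12 to 0.19, edgeR adjusted p = 0.807). The offset gave 0.16 (95% interval 0.03 to 0.30, unadjusted p = 0.0258, edgeR adjusted p = 0.385).

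Ftl1, the light subunit (chromosome 7, 52713314 to 52715254, minus strand), measured 54.1 and 58.5 CPM in FLOX+GCI and 47.6 and 44.9 CPM in FBN-ARO-KO+GCI. Both FBN-ARO-KO+GCI libraries were below both FLOX+GCI libraries. The means were 56.3 ± 3.13 and 46.3 ± 1.89 CPM (SD, n = 2), for a log2 fold change of -0.28 (SE 0.09, 95% interval -0.49 to -0.08, unadjusted p = 0.0125, edgeR adjusted p = 0.244). With the offset it was -0.03 (SE 0.07, edgeR adjusted p = 0.911), and Ftl1 had the second highest GC content among the members (58.1%).

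The level of Ftl1 is uncertain in all libraries, because ferritin light chain has many near-identical copies in the mouse genome. Of the 919 windows of 50 bases, the read length, in its transcript, 688 (74.9%) also occurred elsewhere in mm9, on 9 chromosomes. The corresponding share was 8.69% for Fth1, 0.592% for Mt2 and 0 for each of the other 7 members. Reads with more than 1 place in the genome were not assigned to genes in the deposited counts. The ratio of Fth1 to Ftl1 per kilobase, which was 30.5 and 28.8 in FLOX+GCI but 36.7 and 37.2 in FBN-ARO-KO+GCI, therefore cannot be read as the ratio of the subunits. Ftl2 was not analysed here. Ftmt, the mitochondrial ferritin, had 0 counts in every library.

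Tfrc, the receptor that brings transferrin-bound iron into the cell (chromosome 16, 32609006 to 32632880, plus strand), was the steadiest of the 10. It measured 129.8 and 128 CPM in FLOX+GCI and 132 and 133 CPM in FBN-ARO-KO+GCI. The groups did not overlap, but the means of 129 ± 1.24 and 132 ± 0.421 CPM (SD, n = 2) gave a log2 fold change of only 0.04 (SE 0.07, 95% interval -0.12 to 0.20, edgeR adjusted p = 0.792). Tfrc, with its long AT-rich 3′ UTR, had the lowest GC content (39.8%), and the offset turned its direction, to -0.18 (SE 0.08, 95% interval -0.36 to 0.01, edgeR adjusted p = 0.451).

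Trf (chromosome 9, 103092538 to 103132774, minus strand) is made in brain by oligodendrocytes and the choroid plexus. This span merges 2 overlapping gene models, and 1 of them overlaps Srprb on the same strand. It measured 212 and 261 CPM in FLOX+GCI and 227 and 267 CPM in FBN-ARO-KO+GCI. Replicate 2 was above replicate 1 in both genotypes and the groups overlapped, so the log2 fold change was 0.06 (SE 0.12, 95% interval -0.22 to 0.34, edgeR adjusted p = 0.818), or 0.15 with the offset. The 10 oligodendrocyte markers summed to 4306 and 4803 CPM in FLOX+GCI and to 4924 and 5108 CPM in FBN-ARO-KO+GCI, also higher in replicate 2 of each genotype. At an unadjusted p under 0.05, 4 of these 10 markers (Mobp, Ermn, Cldn11 and Mal) were higher and Opalin was lower in FBN-ARO-KO+GCI. Of all genes, 8.72% were higher and 7.82% lower at that threshold. With the offset the same markers had such a p and Cnp was also higher (0.25), beside 7.92% of all genes higher and 3.5% lower. None of the 10 markers passed the adjusted threshold, and their part in the level of Trf was not tested.

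Slc40a1, the only known cellular iron exporter of mammals (chromosome 1, 45964915 to 45982439, minus strand), measured 11.9 and 8.72 CPM in FLOX+GCI and 9.87 and 9.80 CPM in FBN-ARO-KO+GCI. Both FBN-ARO-KO+GCI libraries fell between the FLOX+GCI libraries. The log2 fold change was -0.07 (SE 0.17, 95% interval -0.47 to 0.34, edgeR adjusted p = 0.87), or -0.17 with the offset. The mRNAs with IRE hairpins thus gave fold changes of 0.03 (Fth1), -0.28 (Ftl1), -0.07 (Slc40a1) and 0.04 (Tfrc) on the log2 scale, and none passed the adjusted threshold. IRE control acts on translation at the 5′ sites, which mRNA counts do not measure.

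**Figure D2:**
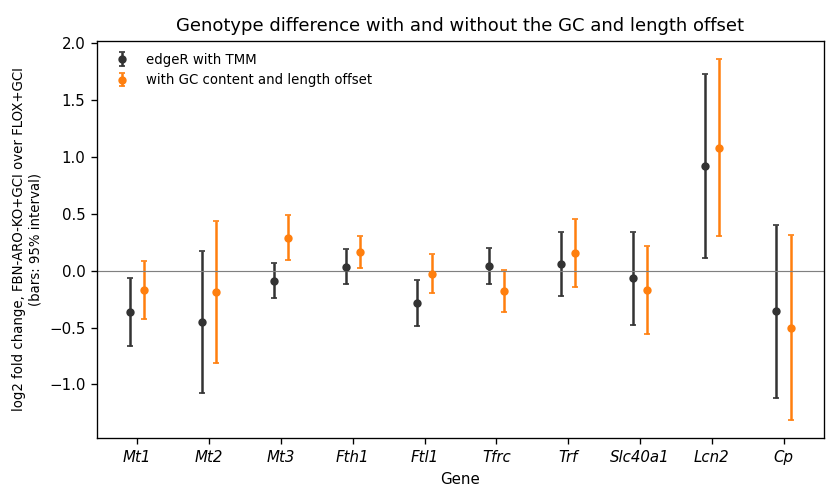
Log2 fold change of FBN-ARO-KO+GCI over FLOX+GCI for each gene, from edgeR with TMM (black) and with the GC content and length offset (orange); bars are 95% intervals from 2 libraries a group. The offset moved Mt3 from -0.09 to 0.29 and Tfrc from 0.04 to -0.18, and Lcn2 was the highest in both fits, at 0.92 and 1.08.

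Cp (chromosome 3, 19857054 to 19909145, plus strand) measured 36.0 and 19.2 CPM in FLOX+GCI and 27.2 and 15.7 CPM in FBN-ARO-KO+GCI. In both genotypes replicate 2 was far below replicate 1, at 0.534 and 0.578 of it, and the groups overlapped. The means were 27.6 ± 11.9 and 21.5 ± 8.13 CPM (SD, n = 2), and the log2 fold change was -0.36 (SE 0.33, 95% interval -1.12 to 0.41, edgeR adjusted p = 0.586), or -0.50 with the offset. With 1 library left out, the value ran from -0.82 (without FBN-ARO-KO+GCI replicate 1) to 0.17 (without FLOX+GCI replicate 1), and neither passed. The end of Cp overlaps Hps3 on the opposite strand, and whether the counting used strand is not given in the sources used here.

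The gap between replicates in Cp was larger than for any other member except Mt2 and Lcn2 in FLOX+GCI. Cp is expressed in brain by astrocytes, vessels and the choroid plexus, so marker lists of these cells stand beside it. The 8 endothelial markers summed to 316 and 255.2 CPM in FLOX+GCI and to 279 and 215 CPM in FBN-ARO-KO+GCI, in the same order as Cp within each genotype. Of the 8, 7 were higher in replicate 1 than in replicate 2 of FLOX+GCI and 8 of 8 in FBN-ARO-KO+GCI. Replicate 1 was higher in both genotypes for 7 of the 8, beside 21.7% of all genes tested. Slco1c1, the most abundant of the 8, differed little, at 79.9 and 74.4 CPM in FLOX+GCI and 83.8 and 73.1 CPM in FBN-ARO-KO+GCI. Ly6c1 went the other way in FLOX+GCI, at 28.4 and 33.5 CPM, and measured 32.7 and 26.5 CPM in FBN-ARO-KO+GCI. The 10 choroid plexus markers summed to 70.2 and 55.6 CPM in FLOX+GCI and to 48.2 and 54.0 CPM in FBN-ARO-KO+GCI, and 9 of them in FLOX+GCI and 5 in FBN-ARO-KO+GCI were higher in replicate 1 than in replicate 2. Ttr, the transthyretin gene, measured 26.5 and 21.9 CPM in FLOX+GCI and 8.93 and 15.6 CPM in FBN-ARO-KO+GCI. The 8 astrocyte markers summed to 5963 and 6074 CPM in FLOX+GCI and to 6191 and 6869 CPM in FBN-ARO-KO+GCI. Of the astrocyte markers, 4 in FLOX+GCI and 1 in FBN-ARO-KO+GCI were higher in replicate 1 than in replicate 2. Replicate 1 was higher in both genotypes for 5 choroid plexus markers and 1 astrocyte marker. The part of astrocytes, vessels or choroid plexus in the Cp values was not tested.

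**Figure D3:**
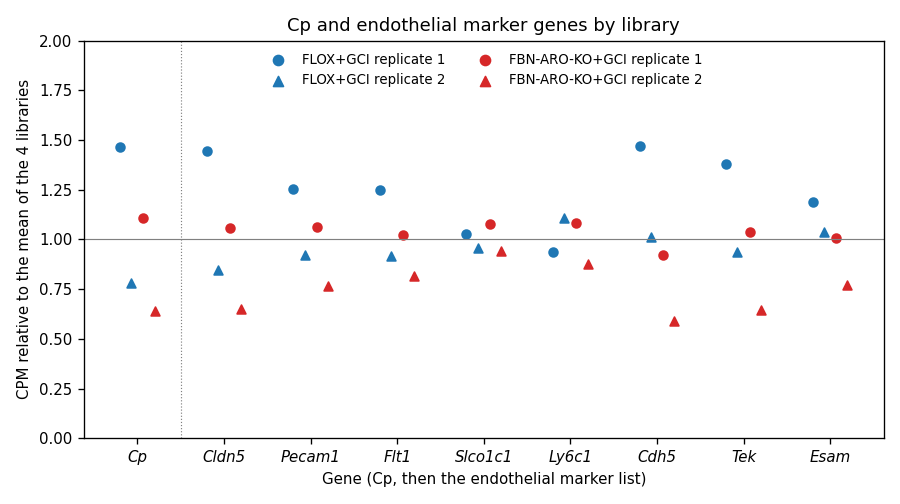
CPM of Cp and of the 8 endothelial marker genes in each library, relative to the mean of the 4 libraries; circles are replicate 1 and triangles replicate 2, blue FLOX+GCI and red FBN-ARO-KO+GCI. Replicate 1 lay above replicate 2 for Cp in both genotypes, as it did for 7 of the 8 markers in FLOX+GCI and for all 8 in FBN-ARO-KO+GCI. Of all genes tested, 21.7% had replicate 1 above replicate 2 in both genotypes.

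Lcn2 (chromosome 2, 32240153 to 32243317, minus strand) had the highest fold change of the 10. It measured 2.35 and 4.95 CPM in FLOX+GCI, from 59 and 122 counts, and 8.18 and 5.63 CPM in FBN-ARO-KO+GCI, from 271 and 165 counts. Both FBN-ARO-KO+GCI libraries were above both FLOX+GCI libraries, although FBN-ARO-KO+GCI replicate 2 exceeded FLOX+GCI replicate 2 by less than either group's own spread. The means were 3.65 ± 1.84 and 6.90 ± 1.80 CPM (SD, n = 2), for a log2 fold change of 0.92 (SE 0.35, 95% interval 0.11 to 1.73, unadjusted p = 0.0311, edgeR adjusted p = 0.268). The offset gave 1.08 (SE 0.33, unadjusted p = 0.0135, edgeR adjusted p = 0.365).

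The direction for Lcn2 was the same with any 1 library left out, and its size was not. Leaving out FLOX+GCI replicate 2 gave a log2 fold change of 1.55, which passed (edgeR adjusted p = 0.017), beside 0.854% of all genes. Leaving out FLOX+GCI replicate 1 gave 0.48, which did not pass. FLOX+GCI replicate 2, the library with the most Gfap, had less Lcn2 than either FBN-ARO-KO+GCI library. Within FLOX+GCI, replicate 2 over replicate 1 was 2.102 for Lcn2 and 2.275 for Gfap. Within FBN-ARO-KO+GCI these ratios were 0.689 and 1.115. The part of astrocytes in the Lcn2 values was not tested.

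Neutrophils carry Lcn2 in their granules, so their markers were examined. The 8 neutrophil markers summed to 0.678 and 0.568 CPM in FLOX+GCI and to 0.543 and 1.297 CPM in FBN-ARO-KO+GCI. Elane, the elastase gene, had 0 counts in all 4 libraries. S100a8, a calgranulin gene, had 16 counts in FBN-ARO-KO+GCI replicate 2 and 0 to 5 in each of the other libraries. None of the 8 passed the filter on low counts, and with 14 to 38 counts in all per library the part of neutrophils in the Lcn2 values was not tested. The genes whose pattern was nearest to Lcn2 were Scgb3a1 (0.105), Il17rb (0.12) and Spef2 (0.162), by the same root mean square difference over 4 libraries, and all of them lay at or below 2.29 CPM in each library. Mt2, at 0.697, was not near.

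**Figure D4:**
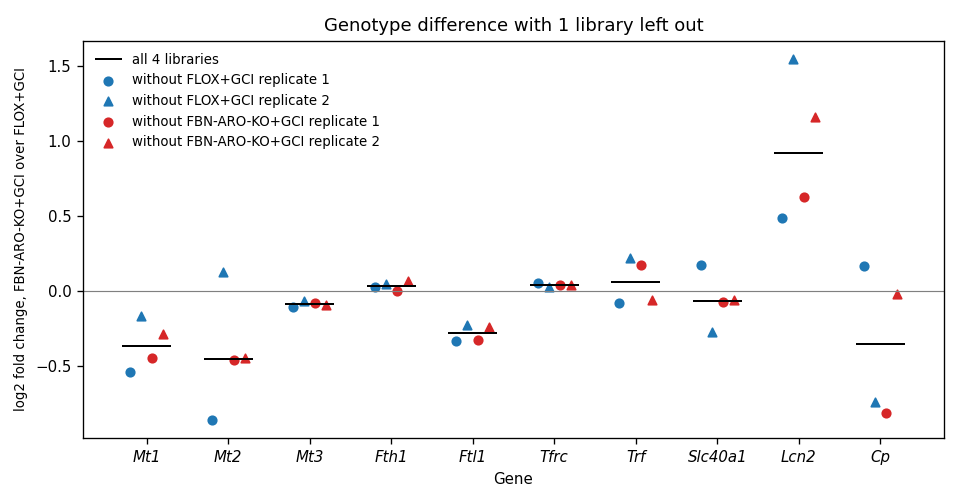
Log2 fold change of FBN-ARO-KO+GCI over FLOX+GCI for each gene with all 4 libraries (black bar) and with 1 library left out (symbols). Leaving out FLOX+GCI replicate 1 or replicate 2 moved Mt2 to -0.86 or 0.12 and Lcn2 to 0.48 or 1.55, while Mt3, Fth1, Ftl1 and Tfrc stayed within about 0.1 of their values from all libraries.

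Slc22a17 and Lrp2, which are known receptors of Lcn2, were measured. Slc22a17, the brain-type receptor, was abundant, at 680.5 and 659 CPM in FLOX+GCI and 575 and 533 CPM in FBN-ARO-KO+GCI. The groups did not overlap, and the log2 fold change was -0.27 (unadjusted p = 0.006, edgeR adjusted p = 0.238), but it was -0.02 with the GC and length offset. Lrp2, or megalin, was sparse, with 21 to 52 counts per library, and gave 0.63 (edgeR adjusted p = 0.355), or 0.61 with the offset.

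Levels can be compared between genes only per length. As CPM per kilobase of the longest coding transcript, averaged over the 4 libraries, the order was Fth1 (1744), Mt3 (494), Mt1 (285), Mt2 (174), Trf (79.7), Ftl1 (53.0), Tfrc (26.7), Lcn2 (5.77), Cp (5.38) and Slc40a1 (2.98). Over the libraries, Mt1 ranged from 235 to 363 and Mt2 from 135 to 269, so these neighbours overlapped. Lcn2 (2.57 to 8.94), Cp (3.45 to 7.89) and Slc40a1 (2.58 to 3.51) also overlapped, and no order among them is given. Ftl1 has no sure place in the order, since most of its sequence occurs elsewhere in the genome. The remaining neighbours did not overlap. Lcn2 and Cp therefore stood at the lower end of the 10, with ferroportin, and far below Fth1 and the metallothioneins in every library.

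A list of 95 other metal-handling genes, grouped by role, gives the setting of the 10. Of these, 94 had a row and 81 passed the filter on low counts. None passed the adjusted threshold in edgeR, and 16 had an unadjusted p under 0.05, or 19.8% beside 16.5% of all genes. Of these, FBN-ARO-KO+GCI was higher in 6 and lower in 10. DESeq2 called 3 of the 33 list genes for which it gave an adjusted p, beside 5.1% of all genes to which it gave one. Slc22a17 and Atp2c1 were among the 3, and in edgeR with the GC and length offset they gave -0.02 and 0.18. The median log2 fold change of the 81 was -0.02. With the GC and length offset, 10 had an unadjusted p under 0.05, 2 higher and 8 lower, and the median was 0.01.

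In heme and globin clearance, 4 of 11 tested genes were lower at an unadjusted p under 0.05 and none was higher, beside 7.82% of all genes lower at that threshold. Hmox1, the inducible heme oxygenase that releases iron from heme, measured 7.86 and 14.6 CPM in FLOX+GCI and 5.13 and 5.84 CPM in FBN-ARO-KO+GCI. It was highest in FLOX+GCI replicate 2, as Mt2 was. Its log2 fold change was -1.03 (edgeR adjusted p = 0.238), -0.91 with the offset, -1.41 without FLOX+GCI replicate 1 (edgeR adjusted p = 0.00195) and -0.52 without FLOX+GCI replicate 2 (edgeR adjusted p = 0.32). Blvrb, a biliverdin reductase, gave -0.84 (unadjusted p = 8.09e-04), from 10.3 and 11.5 CPM in FLOX+GCI to 5.76 and 6.38 CPM in FBN-ARO-KO+GCI, and -0.60 with the offset, and it passed without FLOX+GCI replicate 1 (-0.92, edgeR adjusted p = 0.039). Cd163, the hemoglobin scavenger receptor of perivascular macrophages, gave -0.82, or -0.87 with the offset, and Lrp1, a receptor for hemopexin-bound heme among other ligands, gave -0.25, or -0.08 with the offset. The globin genes among the erythroid markers (Hba-a1, Hba-a2, Hbb-b1 and Hbb-b2) were listed at 0 in all libraries, so they do not measure the blood left in the tissue.

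Among export and its regulation, 2 of 5 tested genes were lower and none higher at an unadjusted p under 0.05, with or without the offset, beside 7.82% of all genes lower (3.5% with the offset). Bmp6, an endothelial signal that induces hepcidin, gave -0.85, or -0.72 with the offset, from 12.2 and 7.55 CPM in FLOX+GCI to 6.18 and 4.78 CPM in FBN-ARO-KO+GCI. It passed without FLOX+GCI replicate 2 (-1.16, edgeR adjusted p = 0.0142) and was -0.46 without FLOX+GCI replicate 1. Hfe, the hemochromatosis protein, gave -0.71 (edgeR adjusted p = 0.248), or -0.80 with the offset. Heph, a ferroxidase of the same family as Cp, gave 0.37 (edgeR adjusted p = 0.342), or 0.28 with the offset. Hepcidin itself, the hormone that degrades ferroportin, was barely detected, with Hamp and Hamp2 at 0 or 1 count in each library.

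Of the iron sensors, 2 of 3 were higher at an unadjusted p under 0.05 and none lower, beside 8.72% of all genes higher, and with the offset 0 of 3 had such a p. Ireb2, the iron regulatory protein that binds IREs in brain, gave 0.28 (unadjusted p = 0.0301), and Fbxl5, which degrades it when iron is plentiful, gave 0.24. With the offset these were 0.03 and 0.07. Aco1, the other iron regulatory protein, gave -0.03. In iron uptake, 0 of 10 were higher and 2 lower at that threshold, beside 7.82% of all genes lower. The 2 were Slc22a17 and Steap4, a metalloreductase with 4 to 13 counts per library (-1.32, unadjusted p = 0.0448). With the offset 0 were higher and 2 lower, beside 3.5% of all genes lower, with Steap4 among them (-1.4) but not Slc22a17 (-0.02). Slc11a2, the divalent metal transporter, gave 0.01, and Tfr2, the second transferrin receptor, gave -0.25 (edgeR adjusted p = 0.456), or -0.06 with the offset. Ncoa4, which delivers ferritin to lysosomes for iron release, gave 0.49 (unadjusted p = 0.0341), or 0.37 with the offset. In its role 1 of 3 tested genes was higher at an unadjusted p under 0.05, beside 8.72% of all genes, and 0 with the offset.

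For zinc, the metal that induces Mt1 and Mt2, little stood out. Of 13 tested importers, 1 was lower at an unadjusted p under 0.05, beside 7.82% of all genes. It was Slc39a1, a ZIP transporter of the plasma membrane, at -0.31, or -0.22 with the offset. Of 8 exporters none had such a p, beside 16.5% of all genes. With the offset, 0 importers and 0 exporters had one, beside 11.4% of all genes. Mtf1, the zinc sensor that binds the metal response element, gave 0.16 (edgeR adjusted p = 0.41), or 0.11 with the offset. For copper, which Cp carries, 1 of 13 genes was higher (Atp7a, the copper export pump, at 0.39, or 0.27 with the offset) and 1 lower (Ccs, the copper chaperone of superoxide dismutase, at -0.26, or -0.05 with the offset). The shares of all genes were 8.72% higher and 7.82% lower. With the offset 0 of the 13 were higher and 1 was lower, which was not Ccs, beside 7.92% and 3.5% of all genes. Steap4, Atp7a, Ccs and the oligodendrocyte genes above were named after their values were seen. Of 3 manganese genes, 1 was higher with or without the offset, beside 8.72% of all genes (7.92% with the offset). It was Atp2c1, a calcium and manganese pump of the Golgi, at 0.33, or 0.18 with the offset.

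**Figure D5:**
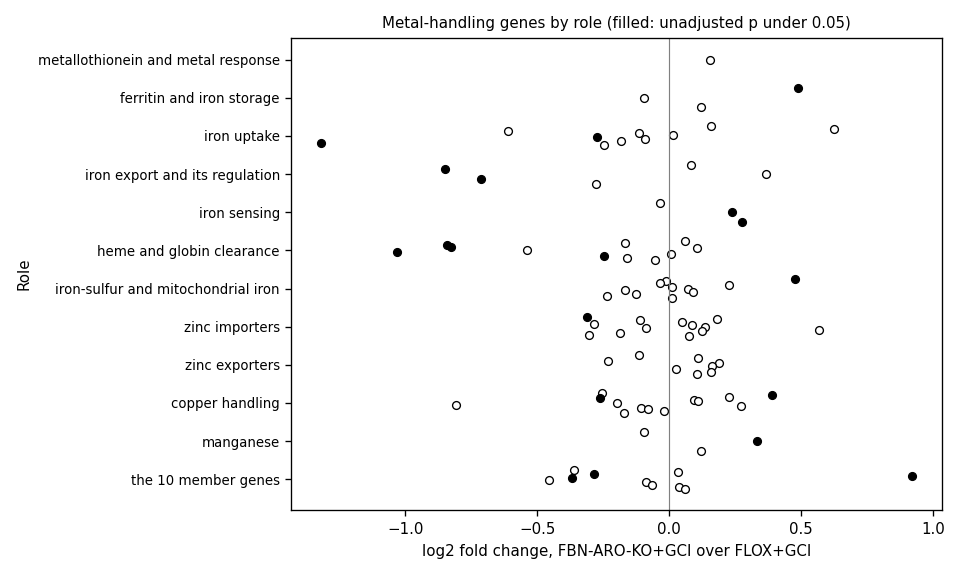
Log2 fold change of FBN-ARO-KO+GCI over FLOX+GCI (x axis) for the 81 tested genes of the metal-handling list by role (y axis), with the 10 member genes in the lowest row; filled points have an unadjusted p under 0.05 and none passed the adjusted threshold. Filled points in heme and globin clearance lie to the left and those in iron sensing to the right, and Lcn2 is the rightmost of all points at 0.92.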

How the data were processed

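Total RNA of hippocampus was sequenced with 50-base single-end reads in 2 libraries per group. The authors deposited raw counts per gene and library, made with TopHat2 2.0.8b on mm9 and HTSeq according to the submitters' processing notes. Neither the HTSeq version nor its annotation and use of strand are given in the sources used here. Counter rows (35.1 to 36.5% of listed reads not unique, 7.96 to 8.70% in no feature, 0.265 to 0.283% ambiguous) were left out.

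From these counts, edgeR 4.0.16 in R 4.3.3 fitted the quasi-likelihood test over all genes that passed filterByExpr (minimum count 10), with TMM scaling, no covariate and Benjamini-Hochberg adjustment. The study's methods name DESeq, so DESeq2 1.42.0 was an alternative. CPM and per-kilobase levels used TMM-scaled library sizes. Standard errors came from the F statistic. Transcript GC content and length came from GENCODE for mm9, in which 21619 of 22609 symbols matched a single locus and 20231 a coding transcript. The offset was a natural spline (5 degrees of freedom) per library over each. The fit was tested on simulated data.

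All 10 members were named, with their set partners on the metal-handling list, the list genes of smallest unadjusted p (at most 12), the 3 genes nearest to Mt1, Mt2 and Lcn2, and up to 3 of the most abundant markers per cell type. The members and lists were chosen with earlier results of these data known. Promoters were RefSeq's (GRCm38.p6). A few genes of the lists are not reported here.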

Additional observations from a re-analysis of the deposited data

How the results depend on the processing

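With 2 libraries a group, the spread between libraries and, for Lcn2 (59 to 271 counts), counting error both limit precision, and their shares were not separated. Over all genes, the main count of 2 calls became 292 with DESeq2, 5 with every gene of at least 1 count, and 0 to 193 with 1 library left out (193 without FLOX+GCI replicate 1, 127 without FLOX+GCI replicate 2). Calls among the 10 members were 0 in each setting that kept all 4 libraries. With 1 library left out, Mt1, Mt2 and Lcn2 moved as given above. On the metal-handling list, 3 genes were called with DESeq2 and 0 to 2 with 1 library left out. The list genes at an unadjusted p under 0.05 numbered 9 with DESeq2, 10 with the GC and length offset and 5 to 15 with 1 library left out. DESeq2 gave no adjusted p for Lcn2, Slc40a1 and Cp, and 0.0544 for Mt1.

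The direction reversed for Mt3 (0.29) and Tfrc (-0.18) with the GC and length offset, and for Fth1 (-0.001) and Slc11a2 (-0.022) with library totals only. With 1 library left out the log2 fold changes ran from -0.86 to 0.12 for Mt2, -0.0003 to 0.067 for Fth1, -0.082 to 0.22 for Trf, -0.27 to 0.17 for Slc40a1, -0.82 to 0.17 for Cp, -0.10 to 0.031 for Aco1 and -0.04 to 0.068 for Slc11a2. The cause of these changes was not tested.

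The labels give both groups replicate numbers 1 and 2 without saying what a number marks. Libraries that share a number deviated from the mean of their group with a correlation of 0.129 over 14527 genes, and with only 2 pairs the numbers were not taken to pair the libraries. A replicate block gave 184 calls over all genes, 0 among the members (5 at an unadjusted p under 0.05, beside 17.5% of all genes) and 3 on the list: Hmox1 (edgeR adjusted p = 0.022), Blvrb (0.0253) and Bmp6 (0.0373). The block with the offset gave 1 call over all genes and 0 on the list, with log2 fold changes of 0.29 for Mt3 and -0.18 for Tfrc.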

Other observations

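The hairpin search that found the iron-responsive elements also returned Alas2, the erythroid enzyme that starts heme synthesis and a classical carrier of the element. Alas2 measured 4.15 and 3.08 CPM in FLOX+GCI and 1.84 and 2.29 CPM in FBN-ARO-KO+GCI. Both FBN-ARO-KO+GCI libraries were below both FLOX+GCI libraries, beside 25.8% of all genes that were lower without overlap. The log2 fold change was -0.81, or -0.71 with the GC and length offset, and did not pass the adjusted threshold (edgeR adjusted p = 0.248). This gene was named after its values were seen.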
